A study of Mus musculus with 23 samples.

Results

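A group of 9 mouse genes of the antioxidant and metal response was followed through 23 bulk RNA sequencing libraries, 7 of them targets of the transcription factor NRF2 (Hmox1, Nqo1, Gclm, Gclc, Slc7a11, Txnrd1 and Srxn1) and 2 of them metallothioneins (Mt1 and Mt2). They were found by matching the Ensembl identifiers of the deposited count table to symbols, which gave 9 of 9 genes among 55401 rows. All 9 passed the filter on low counts, in a test of 24440 genes. The libraries came from tumours grown under the skin of male C57/BL6 mice, 8 to 10 weeks old, from TC2Ras cells, which are TRAMP-C2 prostate adenocarcinoma cells carrying a lentivirus with activated H-ras (G12V). The mice received a plasmid in the tibialis anterior muscle by ultrasound with microbubbles, 10 µg per muscle, either the empty vector (pTSTA-ctrl, 12 libraries) or the IL-27 vector (pTSTA-IL27pepL, 11 libraries). Tumour tissue was then exposed ex vivo to 1 of 6 conditions, which were media, cabozantinib (a tyrosine kinase inhibitor), docetaxel (a microtubule drug), anti-PD-L1 (a checkpoint antibody), IL-27, or cabozantinib plus IL-27. Of the 12 groups 11 held 2 libraries, and the IL-27 vector with ex vivo IL-27 held 1, its replicate 2. The labels do not say whether replicates came from separate animals, so each p below is about the spread of these libraries alone, and that spread may be technical. All tumours came from a single cell line, and the plasmid was delivered to muscle and not to the tumour.

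NRF2, encoded by Nfe2l2, is held in the cytoplasm and marked for destruction by KEAP1 until oxidants or electrophiles modify KEAP1. It then enters the nucleus, pairs with a small MAF protein and binds antioxidant response elements, while BACH1 represses many of the same elements until heme removes it. Its targets make glutathione and thioredoxin, detoxify quinones and break down heme, and NRF2 is known for protecting tumour cells against oxidative stress and drugs. Metallothioneins are small cysteine-rich proteins that bind zinc and copper. Their genes are switched on by MTF1 at metal response elements, and also by glucocorticoids and by cytokines that act through STAT3.

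Promoter sequence was matched in RefSeq (GRCm38.p6) for 7 of the 9 genes; Hmox1 and Gclc had no entry in that table. The 250 bases before the start site are shown for Srxn1 and Nqo1, the genes called between the vectors, and for Mt1 and Mt2, the genes with the widest range between libraries. Capitals mark the letters of an antioxidant response element (ARE, searched as TGACNNNGC or TGAGNNNGC) in Srxn1 and Nqo1, and of a metal response element (MRE, searched as TGCACNC or TGCGCNC) in Mt1 and Mt2, on both strands. Windows of 300 bases, 250 before and 50 after the start, held the ARE letters in 27.79% of 32851 promoters and the MRE letters in 25.7%.
Srxn1 (chr2:152105274-152105523, plus strand): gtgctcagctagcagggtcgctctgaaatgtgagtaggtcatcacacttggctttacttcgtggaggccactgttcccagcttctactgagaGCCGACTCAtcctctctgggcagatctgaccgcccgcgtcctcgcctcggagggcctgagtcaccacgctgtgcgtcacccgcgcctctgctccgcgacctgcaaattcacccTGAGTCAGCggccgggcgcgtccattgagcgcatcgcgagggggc
Nqo1 (chr8:107403206-107403455, minus strand): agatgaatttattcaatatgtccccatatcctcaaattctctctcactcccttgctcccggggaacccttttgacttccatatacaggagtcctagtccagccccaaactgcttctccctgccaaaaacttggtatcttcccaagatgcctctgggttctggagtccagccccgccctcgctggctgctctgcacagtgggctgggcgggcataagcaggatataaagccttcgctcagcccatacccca
Mt1 (chr8:94178839-94179088, plus strand): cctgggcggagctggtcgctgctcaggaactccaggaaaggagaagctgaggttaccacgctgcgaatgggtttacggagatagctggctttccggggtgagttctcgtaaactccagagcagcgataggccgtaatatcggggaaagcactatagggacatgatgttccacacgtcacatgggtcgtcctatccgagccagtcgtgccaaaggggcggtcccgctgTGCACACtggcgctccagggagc
Mt2 (chr8:94172368-94172617, plus strand): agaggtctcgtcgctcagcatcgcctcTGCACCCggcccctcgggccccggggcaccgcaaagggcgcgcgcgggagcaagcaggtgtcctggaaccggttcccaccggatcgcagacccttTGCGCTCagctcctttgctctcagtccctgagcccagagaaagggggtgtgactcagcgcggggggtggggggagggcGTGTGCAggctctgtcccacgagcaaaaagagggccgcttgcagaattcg

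The Srxn1 window held 3 matches to the ARE letters, at 158 and 45 bases before the start and a further one after it, a number that 207 of the 32851 promoters (0.630%) reached. The Nqo1 window held no match to either motif, which says only that these letters are not in this window. Gclm and Slc7a11 held 1 ARE match each, and Txnrd1 held 1 in the window of 1 of its 3 listed starts. Mt1 held 3 MRE matches, 1 of them before the start, and Mt2 held 4, of which 3 lay before the start. At least 3 matches were found in 647 promoters (1.97%) and at least 4 in 170 (0.518%). Gclm also held 3 MRE matches, and Mt2 held 1 match to the ARE letters.

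Library totals ran from 47641781 to 83088346 counts. The libraries fell into sets by transcripts that belong to other cells, and these sets followed the vector closely. In 9 empty vector libraries the summed level of 12 skeletal muscle genes was 1.27 to 18.2 CPM (the count relative to the library total, scaled between libraries by TMM). In 5 libraries, which were empty vector anti-PD-L1 2, empty vector cabozantinib plus IL-27 1 and 2 and IL-27 vector media 1 and 2, it was 478 to 703 CPM, with the neutrophil granule gene Ngp at 14.1 to 18.8 CPM. In 8 IL-27 vector libraries it was 613 to 964 CPM, with Ngp at 0. The last library, IL-27 vector docetaxel 1, stood in no set, with muscle genes at 28.7 CPM and 27.2% of its counts on 1 gene. Ngp alone does not show where neutrophil transcripts were. The summed level of 8 neutrophil genes, Ngp among them, was 43.2 to 53.5 CPM in the 5 libraries that hold Ngp. It was 0.522 to 3.72 CPM in the 9 empty vector libraries low in muscle. In the 8 IL-27 vector libraries without Ngp it was 0.928 to 249 CPM (median 4.04), and in IL-27 vector docetaxel 1 it was 223 CPM. No condition held both vectors within 1 set, so vector and library set cannot be told apart. Only the 5 libraries that hold Ngp include both vectors. A fit with library set as a term takes its vector difference from them. A call lost or a sign turned in that fit therefore cannot decide whether a vector difference holds. The epithelial markers of the labelled adenocarcinoma were low, with median levels over the 23 libraries of 19.6 CPM for Krt8, 0.431 CPM for Krt18, 0.0615 CPM for Epcam and 0.529 CPM for Cdh1. The vector's own gene was near 0 in both arms, at 0 to 0.145 CPM of Il27 in empty vector and 0 to 0.320 CPM in IL-27 vector libraries. In these bulk samples fewer cells of a type and less RNA per cell cannot be told apart.

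Per kilobase of exon, Hmox1 stood at 441 ± 240 CPM per kb (SD, n = 23) as the most abundant transcript of the 9. Mt2 followed at 146 ± 90.2, Mt1 at 77.7 ± 59.5, Srxn1 at 53.4 ± 24.9 and Txnrd1 at 33.6 ± 10.5 CPM per kb. Gclm (16.0), Gclc (10.7), Nqo1 (6.69) and Slc7a11 (2.14 CPM per kb) were the least abundant by this measure. The 2 libraries of a group differed least for Srxn1, by a median of 1.16 times over 11 groups, and Gclm, by 1.20 times. They differed most for Mt1, by a median of 2.27 times, and Mt2, by 2.55 times.

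**Figure D1:**
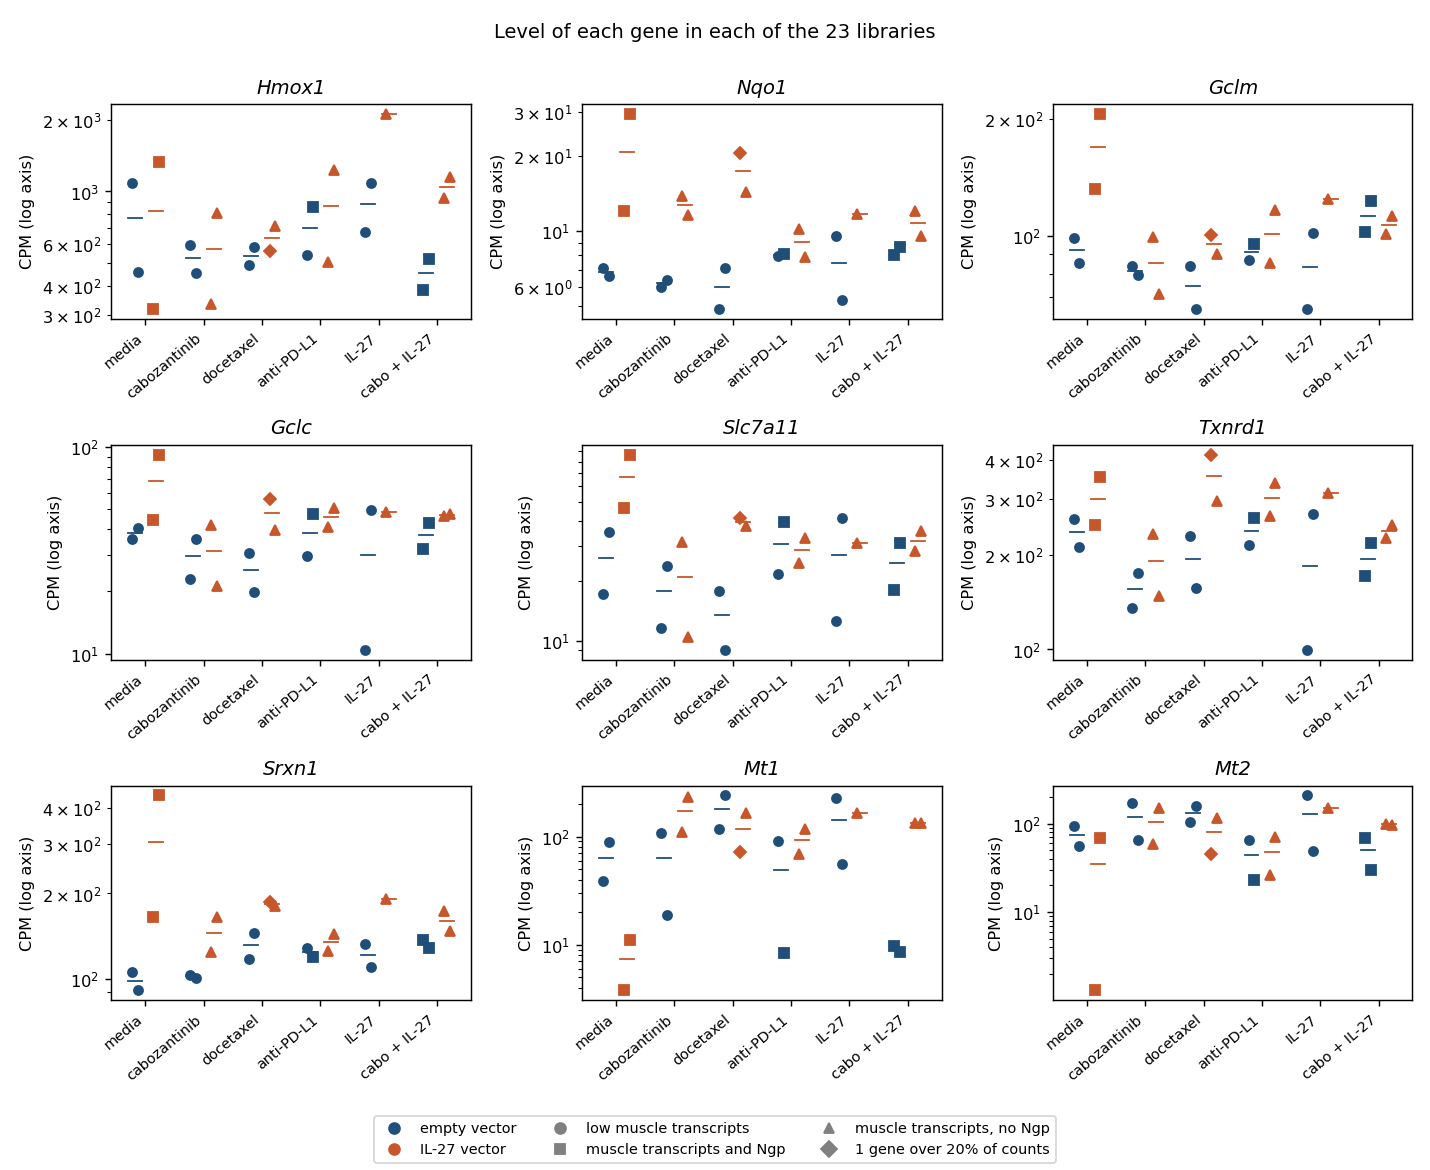
Level of each of the 9 genes in CPM (log axis) in each of the 23 libraries, by ex vivo condition. Blue is empty vector and orange IL-27 vector, the marker gives the library set, and short lines are group means; Mt1 is lowest in the 5 square libraries, and IL-27 vector media 2 is the highest library for 5 of the 9 genes.

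Between the vectors, Nqo1 and Srxn1 were higher with the IL-27 vector, and the other 5 NRF2 targets had positive differences that were not called. The vector difference is the mean of the 6 within-condition log2 differences, tested with edgeR's quasi-likelihood test and adjusted by Benjamini-Hochberg over all 24440 genes, with a call at an adjusted p under 0.05. Of the 9 genes 2 were called (Nqo1 and Srxn1), both higher, where 2.95% of all tested genes were called. The median log2 difference of the 7 NRF2 targets was 0.54 and all 7 were positive, against a median of 0.01 and 51.0% positive over all tested genes. The 7 unadjusted p-values were each under 0.05, a level that 14.5% of all tested genes reached. Mt1 and Mt2 lay on opposite sides of 0, and neither was called.

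Nqo1 (chr8:107388225-107403206, ENSMUSG00000003849) encodes a quinone reductase. Its level in the empty vector libraries ran from 4.87 CPM through a median of 7.10 to 9.61 CPM, and in the IL-27 vector libraries from 7.88 through 12.02 to 29.5 CPM. All 11 IL-27 vector libraries stood above the empty vector median and 9 of them above every empty vector library. The share of all tested genes that separated the vectors as far is not given here. That holds over all libraries and within conditions, for Nqo1 and for the genes below, so these separations are not shown to be particular to them. The mean was 7.14 ± 1.40 CPM (SD, n = 12) against 13.9 ± 6.09 CPM (n = 11), a log2 difference of 0.90 ± 0.18 (SE, edgeR adjusted p = 0.011). In 5 of the 6 conditions both vectors' libraries were apart, anti-PD-L1 being the exception, where 7.97 and 8.07 CPM in empty vector libraries met 10.2 and 7.88 CPM. The call was kept in each of 23 fits that left out 1 library, with differences of 0.77 to 0.94 and adjusted p of 0.0042 to 0.033. It was lost with the library set as a further term (1.10 ± 0.54, edgeR adjusted p = 1), with the muscle signal as a term (0.82 ± 0.29, adjusted p = 0.20) and without the 5 libraries that hold Ngp, over the 4 conditions that then keep both vectors (0.81 ± 0.22, adjusted p = 0.10). Within those 5 libraries Nqo1 was 8.06, 8.07 and 8.67 CPM with the empty vector and 12.02 and 29.5 CPM with the IL-27 vector, but no ex vivo condition was shared.

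Srxn1 (chr2:152105516-152111376, ENSMUSG00000032802) encodes sulfiredoxin, which repairs over-oxidised peroxiredoxins. The empty vector libraries ran from 90.8 CPM through a median of 118 to 145 CPM, a narrow range, and the IL-27 vector libraries from 124 through 165 to 444 CPM. All 11 IL-27 vector libraries stood above the empty vector median, and 8 above the highest empty vector library. The mean was 118 ± 16.7 CPM (SD, n = 12) against 186 ± 88.7 CPM (n = 11), a log2 difference of 0.61 ± 0.14 (SE, edgeR adjusted p = 0.028). The highest value, 444 CPM, was IL-27 vector media 2, whose replicate stood at 165 CPM. Without it the difference was 0.46 and still called (edgeR adjusted p = 0.029). The call was kept in 13 of 23 fits that left out 1 library and lost in 10, at adjusted p of 0.055 to 0.065. Those 10 left out empty vector media 1 or 2, cabozantinib 2, docetaxel 1, or cabozantinib plus IL-27 1 or 2, or IL-27 vector cabozantinib 2, docetaxel 1, anti-PD-L1 2 or cabozantinib plus IL-27 1. It was also lost in the additive model of vector and condition (0.60 ± 0.17, edgeR adjusted p = 0.052), with the library set (1.42 ± 0.41, adjusted p = 1), with the muscle signal (0.41 ± 0.25, adjusted p = 0.49) and without the libraries that hold Ngp (0.38 ± 0.14, adjusted p = 0.27).

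None of the 3 glutathione genes was called between the vectors by edgeR, though each had an unadjusted p under 0.05. Gclm, the modifier subunit of glutamate-cysteine ligase, had levels of 65.0 to 123 CPM (median 86.2) with the empty vector and 71.2 to 205 CPM (median 101) with the IL-27 vector. Its difference of 0.32 ± 0.13 was not called (edgeR adjusted p = 0.21). Gclc, the catalytic subunit of the same enzyme, ran from 10.4 through 34.1 to 49.8 CPM with the empty vector and from 21.2 through 46.4 to 92.0 CPM with the IL-27 vector. The means were 33.2 ± 11.5 CPM (SD, n = 12) and 48.2 ± 17.0 CPM (n = 11), with a difference of 0.52 ± 0.23 (edgeR adjusted p = 0.30). That result depended on empty vector IL-27 2, at 49.8 CPM. Without it the difference was 0.77 and called (edgeR adjusted p = 0.021), with its replicate of 10.4 CPM left as the lone sample of the group and taken to vary as the other groups do. Slc7a11, the cystine carrier that feeds glutathione synthesis, ran from 9.02 through 19.9 to 41.6 CPM with the empty vector. With the IL-27 vector it ran from 10.5 through 32.8 to 86.5 CPM, for a difference of 0.60 ± 0.26 (edgeR adjusted p = 0.27). For Gclc and Slc7a11, 10 of 11 IL-27 vector libraries lay above the empty vector median.

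Txnrd1, which encodes the cytosolic thioredoxin reductase, had levels of 99.7, 213 and 269 CPM (lowest, median, highest) with the empty vector and 148, 264 and 414 CPM with the IL-27 vector. The highest value was in IL-27 vector docetaxel 1, the library with 27.2% of its counts on 1 gene. The Txnrd1 difference was 0.49 ± 0.16 (edgeR adjusted p = 0.14). It was called by DESeq2 (0.48, adjusted p = 0.042) and, in edgeR, without empty vector IL-27 2 (0.63, adjusted p = 0.013). Hmox1, the heme oxygenase that breaks heme into iron, carbon monoxide and biliverdin, ran in the IL-27 vector libraries from 318 through 812 to 2120 CPM. The empty vector range was 383 through 562 to 1088 CPM, and 7 of 11 IL-27 vector libraries lay above that median. The difference was 0.54 ± 0.25 (edgeR adjusted p = 0.32), the 2 ranges overlapped, and 4 IL-27 vector libraries lay above every empty vector library.

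**Figure D2:**
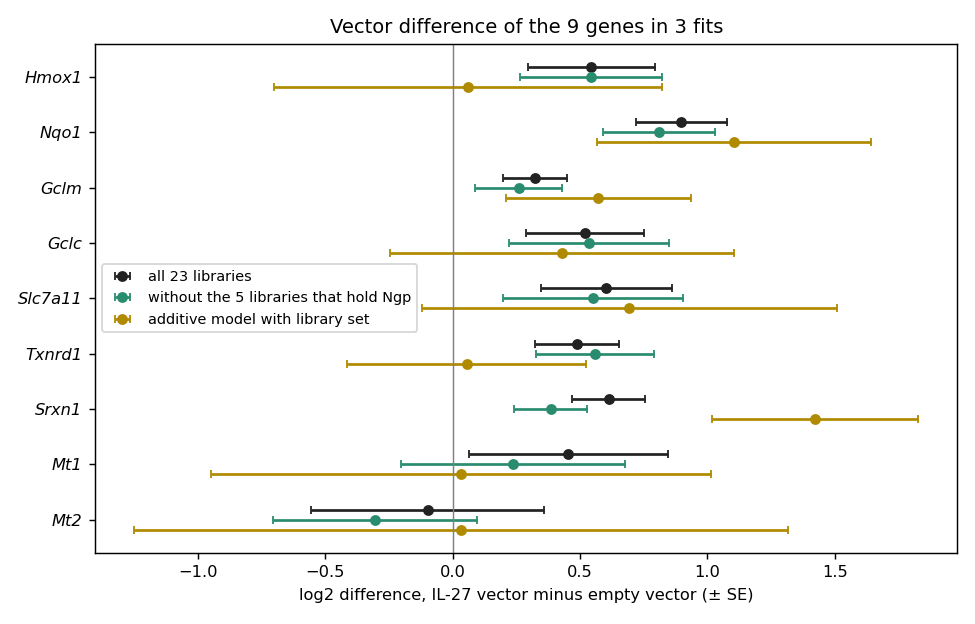
Log2 difference between IL-27 vector and empty vector (x axis) with its SE for the 9 genes, from all 23 libraries, without the 5 libraries that hold Ngp, and from the additive model with library set. The 7 NRF2 targets are positive in all 3 fits, and the SE of each gene is widest in the third.

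The group order put IL-27 vector groups at the top for the NRF2 targets. For Nqo1 and Srxn1 all 6 IL-27 vector groups ranked above all 6 empty vector groups, and the IL-27 vector media group led both, at mean levels of 20.7 and 305 CPM. This order restates the vector difference of the 2 genes from the same values. The share of all tested genes with such an order is not given here. Most neighbours in these orders were not apart, since the libraries of adjacent groups overlapped in all but 2 of 11 steps for Nqo1 and all but 3 of 11 for Srxn1. For Gclc, Txnrd1, Mt1 and Mt2 no adjacent pair of groups was apart. Gclc, Gclm, Slc7a11 and Txnrd1 had 5 IL-27 vector groups among their 6 highest, Hmox1 and Mt1 had 4 and Mt2 had 3. IL-27 vector media 2 was the highest of 23 libraries for Nqo1, Gclm (205 CPM), Gclc (92.0 CPM), Slc7a11 (86.5 CPM) and Srxn1.

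Against media, none of the 9 genes was called by edgeR for any ex vivo exposure, averaged over both vectors. The calls among all tested genes were 0% for cabozantinib, 1.79% for docetaxel, 0% for anti-PD-L1, 0% for IL-27 and 0.00409% for cabozantinib plus IL-27. At an unadjusted p under 0.05 there were 4 NRF2 targets for cabozantinib and 1 for docetaxel, and 0 for the other 3 exposures. The share of all tested genes at that level was 10.5% for cabozantinib, 15.3% for docetaxel, 5.85% for anti-PD-L1, 11.9% for IL-27 and 4.47% for the combination. Mt1 passed that unadjusted level for cabozantinib, docetaxel, anti-PD-L1 and IL-27. DESeq2 called 1 of the 9 genes, Mt1, for cabozantinib, docetaxel and IL-27, and 0 for anti-PD-L1 and the combination. Over all genes DESeq2 called 303 for cabozantinib (1.24%), 1691 for docetaxel (6.92%), 114 for anti-PD-L1 (0.466%), 627 for IL-27 (2.57%) and 63 for the combination (0.258%). In edgeR an unadjusted p under 0.05 was found for 2570, 3736, 1429, 2907 and 1092 genes in the same order.

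For cabozantinib all 7 NRF2 targets had negative differences from media, with a median log2 difference of -0.58 where that of all genes was 0.00. Slc7a11 had the most negative, at -1.11 ± 0.44 (edgeR adjusted p = 0.43), with cabozantinib libraries at 11.6 and 23.9 CPM under the empty vector and 31.6 and 10.5 CPM under the IL-27 vector. Its media libraries stood at 17.3 and 35.3 CPM under the empty vector and at 46.7 and 86.5 CPM under the IL-27 vector. Gclm was at -0.58 ± 0.21 (edgeR adjusted p = 0.41) and Txnrd1 at -0.63 ± 0.28 (adjusted p = 0.46). In both genes 3 of the 4 cabozantinib libraries lay below all 4 media libraries. The share of all tested genes with this pattern is not given here. Both IL-27 vector media libraries belong to the set that holds Ngp and no cabozantinib library does, so exposure and library set are mixed in it. The docetaxel differences were also negative in 7 of 7 targets, with a median of -0.45, but in 3 of 7 without IL-27 vector media 2. The signs under the other exposures were negative in 6 of 7 for anti-PD-L1, in 6 of 7 for IL-27 and in 7 of 7 for the combination. Without that library they were negative in 6 of 7 for cabozantinib, 3 of 7 for anti-PD-L1, 4 of 7 for IL-27 and 3 of 7 for the combination.

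These differences rested in part on the media libraries of the IL-27 vector, both of which hold Ngp. Under the empty vector alone, Srxn1 differed from media by 0.05 ± 0.34 (log2, SE) with cabozantinib, 0.42 ± 0.34 with docetaxel, 0.34 ± 0.34 with anti-PD-L1, 0.31 ± 0.34 with IL-27 and 0.44 ± 0.34 with the combination. Averaged over both vectors the same 5 differences were negative, from -0.51 to -0.15. Leaving out IL-27 vector media 2 turned the sign of Hmox1 for cabozantinib (0.14), docetaxel (0.24), anti-PD-L1 (0.65) and the combination (0.47). It also turned Srxn1 for docetaxel (0.29), anti-PD-L1 (0.023), IL-27 (0.26) and the combination (0.20), and Nqo1 for docetaxel (0.17), IL-27 (0.043) and the combination (0.068). Txnrd1 turned for docetaxel (0.11), and Gclc for anti-PD-L1 (0.021) and the combination (0.023). Hmox1 after ex vivo IL-27 had the single highest value of the gene, 2120 CPM in IL-27 vector IL-27 2, a group with no second library, and 675 and 1088 CPM under the empty vector. Its difference from media was 0.77 ± 0.46 (edgeR adjusted p = 0.49) and 0.26 without that library.

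**Figure D3:**
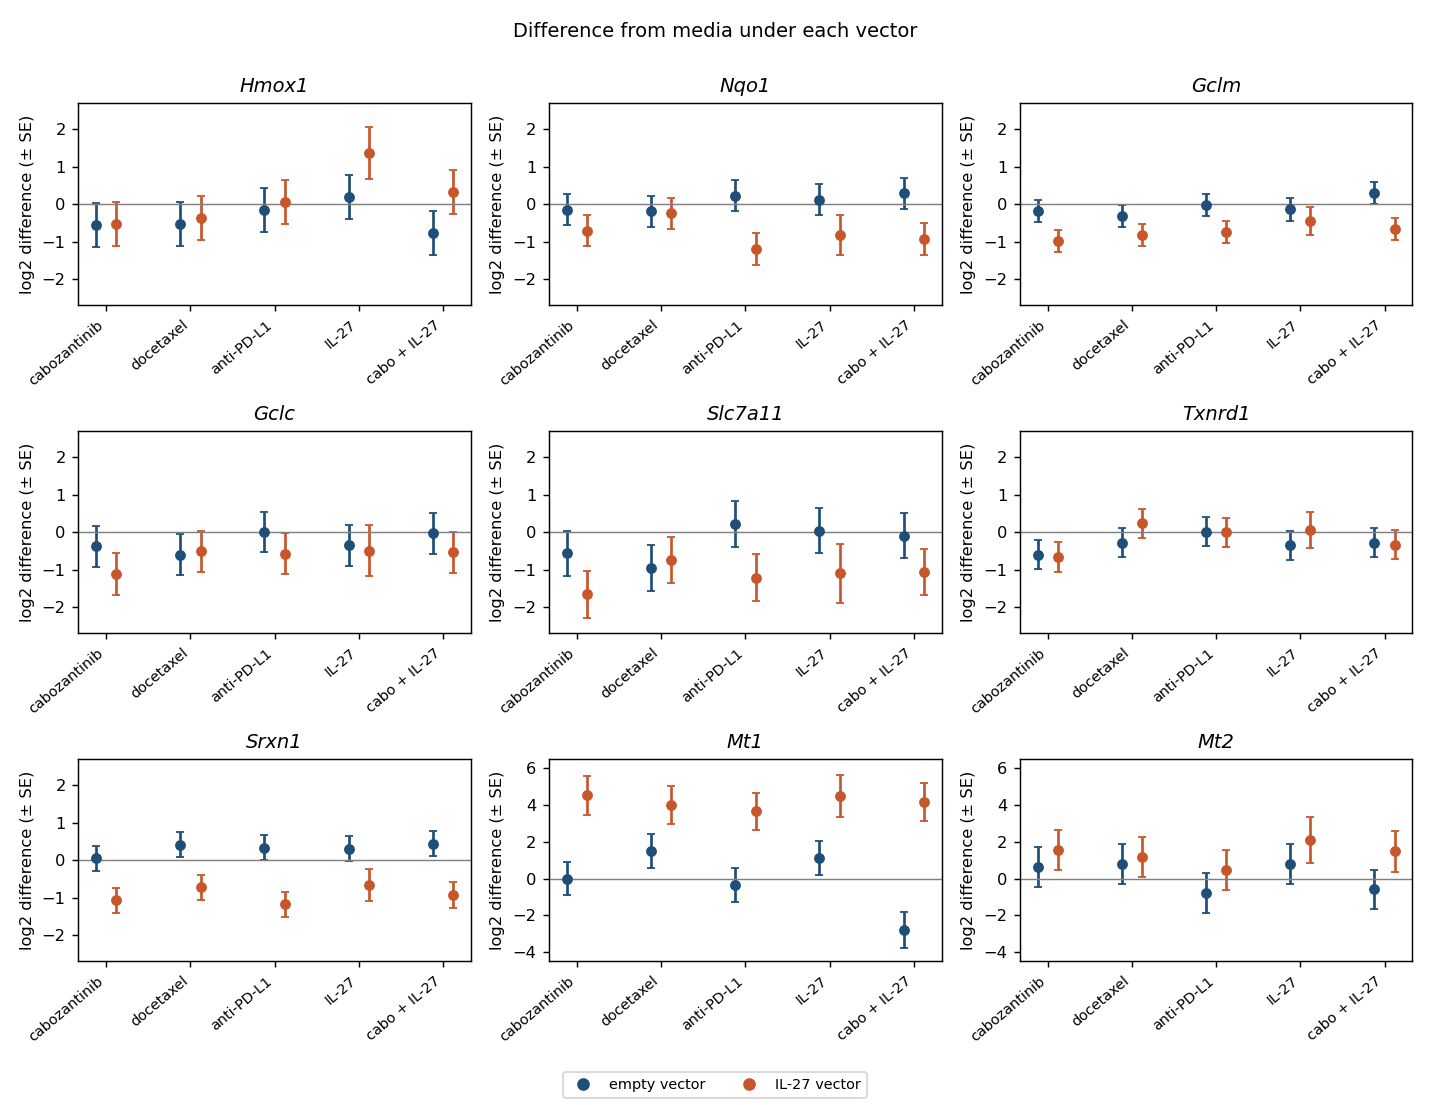
Log2 difference from media with its SE for each of the 5 exposures (x axis), under the empty vector (blue) and the IL-27 vector (orange), for the 9 genes; the axis of Mt1 and Mt2 is wider. Mt1 differs from media by 3.66 to 4.55 under the IL-27 vector, whose media libraries hold Ngp and the lowest and the fifth lowest Mt1 levels.

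Mt1 (chr8:94179082-94180327, ENSMUSG00000031765) spanned the range from 3.77 to 240 CPM, 63.6 times. Under the empty vector its levels in replicates 1 and 2 were 39.1 and 88.7 CPM in media, 109 and 18.7 CPM with cabozantinib, 118 and 240 CPM with docetaxel, 90.5 and 8.46 CPM with anti-PD-L1, 226 and 56.2 CPM with IL-27, and 9.65 and 8.58 CPM with the combination. Under the IL-27 vector they were 3.77 and 10.96 CPM in media, 110 and 234 CPM with cabozantinib, 72.4 and 164 CPM with docetaxel, 68.8 and 118 CPM with anti-PD-L1, 165 CPM in the single IL-27 library, and 132 and 134 CPM with the combination. The 5 libraries that hold Ngp and muscle transcripts were the 5 lowest, at 3.77 to 10.96 CPM (8.28 ± 2.71, SD, n = 5), without overlap with any other set. The 9 empty vector libraries low in muscle ran from 18.7 to 240 CPM, the 8 IL-27 vector libraries with muscle from 68.8 to 234 CPM, and IL-27 vector docetaxel 1 stood at 72.4 CPM. The share of all tested genes that set these 5 libraries apart in the same way is not given here. Other genes ran closely with Mt1 over the 23 libraries, among them Blvrb, Abcb8 and Fkbp8 (Spearman rho = 0.97 each). The separation is therefore not shown to be particular to Mt1.

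Mt2 (chr8:94172664-94173568, ENSMUSG00000031762) lies beside Mt1 and showed the separation only in part. In the 5 libraries that hold Ngp it was 22.8, 69.7, 29.8, 1.29 and 69.4 CPM, inside the 26.5 to 209 CPM of the other libraries in 3 of 5 cases. Its IL-27 vector media libraries, at 1.29 and 69.4 CPM, differed 53.7 times, the widest gap between replicates of any of the 9 genes. The ratio of Mt1 to Mt2 CPM was 0.138 to 0.371 in 4 of the 5 libraries that hold Ngp and 2.92 in the other, IL-27 vector media 1. It was 0.291 to 1.58 in the empty vector libraries low in muscle and 1.09 to 2.59 in the 8 IL-27 vector libraries with muscle. The coding parts of both genes are close copies, and how shared reads were divided is not given in the sources used here.

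Mt1 was higher after docetaxel than in media by 2.75 ± 0.69 (log2, SE), just outside the call (edgeR adjusted p = 0.054). The values for the other exposures were 2.27 ± 0.68 for cabozantinib (edgeR adjusted p = 0.36), 1.65 ± 0.67 for anti-PD-L1 (adjusted p = 0.78), 2.81 ± 0.73 for IL-27 (adjusted p = 0.20) and 0.68 ± 0.65 for the combination (adjusted p = 0.90). Under the empty vector alone the differences were 1.49 ± 0.94 for docetaxel, 0.00 ± 0.92 for cabozantinib and 1.14 ± 0.93 for IL-27, and the combination, whose libraries both hold Ngp, was at -2.81 ± 0.98. With only the empty vector libraries low in muscle, docetaxel against media was 1.49 ± 0.75 (edgeR adjusted p = 1). With library set as a term it was 1.18 ± 0.70 (adjusted p = 0.80). The docetaxel call was gained in 7 of 23 fits that left out 1 library, which were empty vector cabozantinib 2, docetaxel 1, anti-PD-L1 1 or 2, IL-27 1 or 2, and IL-27 vector media 2, at adjusted p of 0.022 to 0.048. It was also gained in DESeq2, with no filter and with a filter of 1 CPM in 4 libraries.

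Mt2 differed from media by 1.11 ± 0.77 for cabozantinib, 1.00 ± 0.77 for docetaxel and 1.44 ± 0.84 for IL-27, none of them called (edgeR adjusted p from 0.49 to 0.55). Leaving out IL-27 vector media 2, which left the 1.29 CPM library alone in its group, moved these to 3.49, 3.38 and 3.83, each called (edgeR adjusted p = 0.034, 0.012 and 0.015). The test of whether exposure differences depended on vector gave no call for any of the 9 genes, and 0% of all genes by edgeR (1322 at an unadjusted p under 0.05, 635 called by DESeq2). Mt1 had the smallest p of the 9 in that test, 0.0043 before adjustment (edgeR adjusted p = 0.34, DESeq2 adjusted p = 0.0031). The vector difference of Mt1 was -3.12 ± 1.00 in media and 3.87 ± 1.03 with the combination, the 2 conditions in which both libraries of 1 vector and neither of the other hold Ngp. Over any difference between the 12 groups, 0 of the 9 were called by edgeR where 1.97% of all genes were, and 4 (Nqo1, Gclm, Srxn1 and Mt1) by DESeq2, which called 2671 of all genes (10.9%). Of the 9 genes, 4 had an unadjusted p under 0.05 in edgeR, as did 11.1% of all genes.

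The deviation of genes in a library from their mean over libraries was related to GC content, with a slope in log2 CPM per unit of GC fraction of -6.01 to 5.16 over the 23 libraries. The slope was -6.01 to -1.56 in the 5 libraries that hold Ngp, -2.001 to 5.16 in the empty vector libraries low in muscle and 0.441 to 3.69 in the IL-27 vector libraries with muscle. Within the 9 empty vector libraries low in muscle, Mt1 rose with this slope (Pearson r = 0.81, Spearman rho = 0.87) and Gclc fell with it (r = -0.94, rho = -0.93). Over 100 relations computed within the 2 larger sets and adjusted together, the exact permutation p was 0.063 and 0.046 for Mt1, and 0.0075 and 0.038 for Gclc. Leaving out the 2 libraries farthest from the median level gave r = 0.80 for Mt1 and r = -0.90 for Gclc. Removing the trend with GC content from each library left the 5 Ngp libraries lowest in Mt1, at 4.25 to 11.1 CPM against 19.5 CPM or more in each other library. It left the vector difference of Nqo1 at 0.92 and of Srxn1 at 0.60, both still called (edgeR adjusted p = 0.011 and 0.013).

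**Figure D4:**
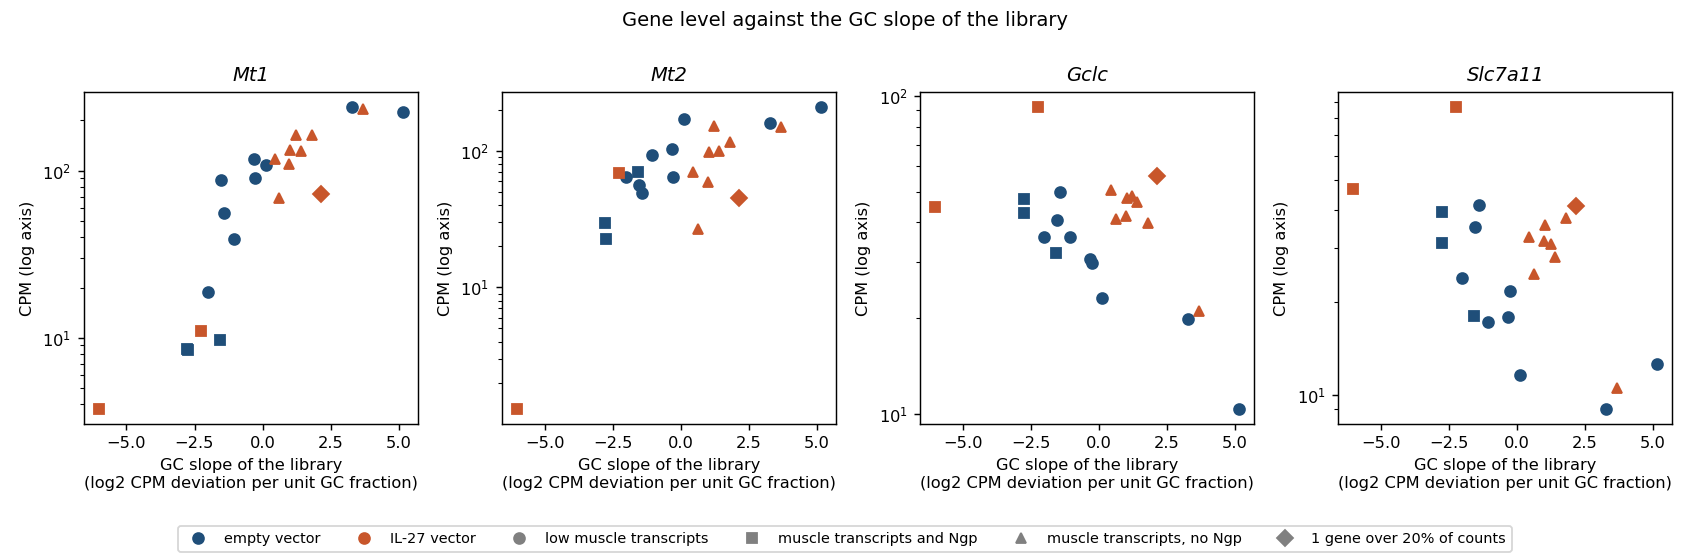
Level in CPM (log axis) of Mt1, Mt2, Gclc and Slc7a11 in each of the 23 libraries against the GC slope of the library (x axis, log2 CPM deviation per unit of GC fraction), with colour for the vector and marker for the library set. Mt1 and Mt2 are higher where the slope is higher, and Gclc and Slc7a11 are lower within the empty vector libraries low in muscle.

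Between the genes themselves, Mt1 and Mt2 moved together in the 8 IL-27 vector libraries with muscle (r = 0.95, rho = 0.95, exact permutation p adjusted over 100 relations 0.0075 and 0.038, r = 0.95 without the 2 farthest libraries). In the 9 empty vector libraries low in muscle the same relation was r = 0.67 and rho = 0.67 (adjusted exact permutation p = 0.15 and 0.22). Gclm and Gclc were related in the IL-27 vector set (r = 0.88, rho = 0.95, adjusted exact permutation p = 0.0084 and 0.038, r = 0.92 without 2). In the empty vector set they gave r = 0.84 and rho = 0.72 (adjusted exact permutation p = 0.037 and 0.16). Slc7a11 and Mt2 ran opposite ways in the empty vector set (r = -0.93, rho = -0.90, adjusted exact permutation p = 0.0084 and 0.041, r = -0.90 without 2), where the GC slope varied most. Of the 100 relations, 8 had both adjusted p-values under 0.05.

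Hmox1 followed erythroid transcripts in the IL-27 vector libraries with muscle. The summed level of 5 erythroid genes (Hba-a1, Hba-a2, Hbb-bs, Hbb-bt and Alas2) ran from 21.2 to 1576 CPM there and from 10.1 to 81.3 CPM in the empty vector libraries low in muscle. In the former set Hmox1 and this sum gave r = 0.88 and rho = 0.90 (n = 8, adjusted exact permutation p = 0.040 and 0.046), and r = 0.91 without the 2 libraries farthest from the median of Hmox1. The library with the highest Hmox1, at 2120 CPM, also held the highest erythroid sum, 1576 CPM. In the empty vector set the relation was r = -0.09 and rho = 0.20 (n = 9, adjusted exact permutation p = 0.91 and 0.82), and r = 0.81 without the 2 farthest libraries, so it rests on which of them are kept. Of the erythroid list 4 of 5 genes were called higher with the IL-27 vector, where 2.95% of all tested genes were called. The part of erythroid transcripts in the Hmox1 values was not tested.

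**Figure D5:**
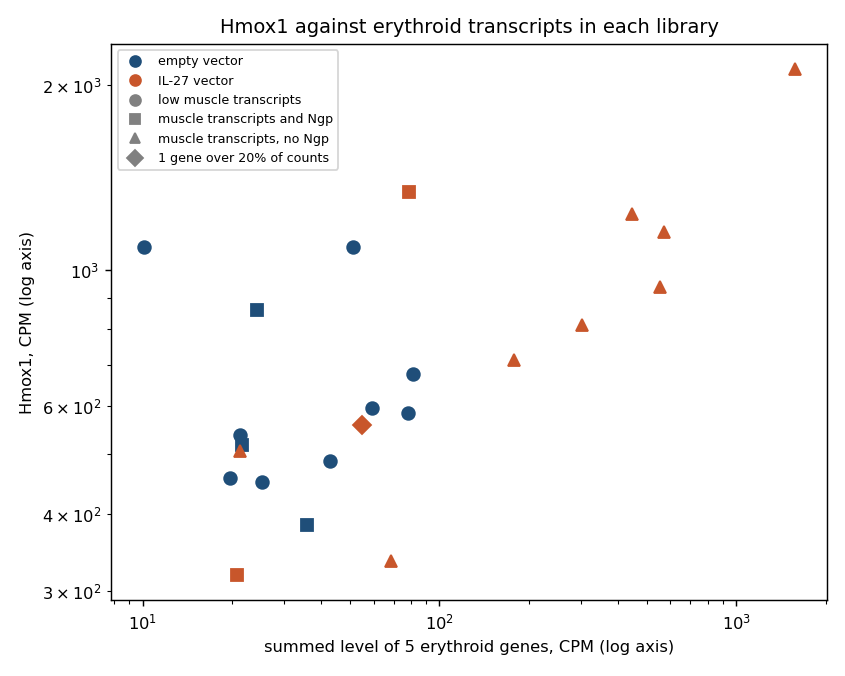
Hmox1 level in CPM against the summed level of 5 erythroid genes in CPM, both on log axes, one point per library. The 8 IL-27 vector libraries with muscle transcripts (orange triangles) rise together from 335 to 2120 CPM of Hmox1, and the empty vector libraries stay at or under 81.3 CPM of erythroid sum.

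Of the regulators of the pathway 1 was called between the vectors, where 2.95% of all tested genes were, and the gene of NRF2 was not. Nfe2l2, the gene of NRF2, was 142 ± 23.7 CPM (SD, n = 12) with the empty vector and 128 ± 29.1 CPM (n = 11) with the IL-27 vector, a log2 difference of -0.16 ± 0.11 (edgeR adjusted p = 0.64). Among 8 regulator genes only Mafg, a small MAF partner, was called between the vectors, at 103 ± 16.4 against 142 ± 23.2 CPM (0.48 ± 0.11, edgeR adjusted p = 0.029). Its call was kept in 9 of 23 fits that left out 1 library, and was lost with no filter, with library set, with muscle signal and without the libraries that hold Ngp. Mafk was at 0.37 ± 0.13 (edgeR adjusted p = 0.15) and Sqstm1, which competes for KEAP1, at -0.18 ± 0.13 (adjusted p = 0.65).

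Of 24 further NRF2 targets 2 were called, both higher, where 2.95% of all tested genes were called. Their differences were positive in 14 of 24, near the 51.0% of all tested genes, with a median of 0.09 against 0.01. An unadjusted p under 0.05 in edgeR was found for 6 of 24, and for 14.5% of all tested genes. Gsta4, a glutathione transferase that acts on lipid peroxidation products, rose from 16.5 ± 8.58 CPM (SD, n = 12) with the empty vector to 41.9 ± 26.6 CPM (n = 11) with the IL-27 vector (1.22 ± 0.26, edgeR adjusted p = 0.017). Gsta1 was called at low levels, 0 to 0.775 CPM against 0.249 to 5.62 CPM (2.89 ± 0.60, edgeR adjusted p = 0.015). Both calls were kept in 23 of 23 fits that left out 1 library and lost with library set, with muscle signal and without the libraries that hold Ngp. Gsta3, a close relative, was at 2.88 ± 0.76 (edgeR adjusted p = 0.054). Close copies among the Gsta genes can share reads. The keratinocyte markers, of which 4 of 9 were called higher, ran from 1.85 to 6.28 CPM summed with the empty vector and from 1.48 to 2823 CPM with the IL-27 vector. The muscle markers were called in 12 of 13, and the part of either cell type in the values of Nqo1, Srxn1 and the Gsta genes was not tested. The macrophage list, whose cells also express Hmox1, had 0 of 9 called by edgeR (0 at an unadjusted p under 0.05), at summed levels of 222 to 792 CPM with the empty vector and 252 to 867 CPM with the IL-27 vector.

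Over all tested genes, 2.95% were called between the vectors, 14.5% had an unadjusted p under 0.05 in edgeR and 51.0% of differences were positive. These shares apply to each list below. Among 12 tested zinc and MTF1 genes of 13 listed, 0 were called between the vectors, 1 had an unadjusted p under 0.05 in edgeR and 8 differences were positive. That gene was Slc30a1, a zinc exporter, at 3.53 ± 1.48 CPM (SD, n = 12) and 5.33 ± 2.48 CPM (n = 11), with a difference of 0.56 ± 0.25 (edgeR adjusted p = 0.31). Against media the zinc and MTF1 list was negative in 10 of 12 genes for cabozantinib and 10 of 12 for docetaxel. It was negative in 8 of 12 for IL-27 and 8 of 12 for the combination. Mt1 and Mt2 were both positive in each of these comparisons. For anti-PD-L1, where Mt2 was negative, it was negative in 9 of 12. None of the list was called, and the median difference of all genes lay between -0.03 and 0.03. The share of all tested genes with a negative sign in these comparisons is not given here. The list mixes Mtf1, Mt3, Mt4 and zinc transporters of the Slc30 and Slc39 families, so its signs are not a measure of MTF1 activity. The part of MTF1 in the Mt1 and Mt2 values was not tested. In the glucocorticoid list 1 of 7 genes was called, Per1, at -0.62 ± 0.16 (edgeR adjusted p = 0.039). That call was kept in 9 of 23 fits that left out 1 library (adjusted p up to 0.099), and with muscle signal as a term the difference was 0.035. Of 8 acute phase and STAT3 genes 2 were called, both higher, Saa3 (4.42 ± 0.80, edgeR adjusted p = 0.0060) and Il6 (2.96 ± 0.65, adjusted p = 0.020). With 1 library left out the Saa3 call was kept in 23 of 23 fits and the Il6 call in 14 of 23 (adjusted p up to 0.067). Neither the Saa3 nor the Il6 call was kept with library set as a term. Saa3 was highest in IL-27 vector media 2, at 375 CPM, the library that was also highest for Srxn1. The heat shock list gave 2 of 7, Hspa1a (2.60 ± 0.32, edgeR adjusted p = 0.0012) and its close copy Hspa1b (1.99 ± 0.23, adjusted p = 0.0012), and the ATF4 list 1 of 9, Ddit3, which fell by 1.11 (SE 0.21, edgeR adjusted p = 0.0088). With 1 library left out the differences ran from 2.31 to 2.72 for Hspa1a and from 1.82 to 2.07 for Hspa1b. Both heat shock calls were lost with library set as a term, at -1.46 for Hspa1a and -0.39 for Hspa1b (edgeR adjusted p = 1 for each). That fit takes its vector difference from the 5 libraries that hold Ngp, so it cannot decide whether these calls hold. The Ddit3 call was also lost with that term, and its difference ran from -1.24 to -0.96 with 1 library left out. None of 9 genes each for cystine and ferroptosis defence and for heme and iron was called by edgeR, and none had an unadjusted p under 0.05.

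The genes most like each member over the 23 libraries were named by Spearman's rho of log2 CPM among tested genes with a mean of at least 1 CPM. For Mt1 they were Blvrb, a biliverdin reductase (rho = 0.97), Abcb8 (0.97) and Fkbp8 (0.97), and for Mt2 they included Rpl10a (0.92) and Atp5e (0.92). Srxn1 was most like Saa3 (0.80), Parm1 (0.79) and 6530402F18Rik (0.79), and Nqo1 like Klk7 (0.86), Gdpgp1 (0.85) and Ces2g (0.81). Txnrd1 was most like Ptgs2 (0.93), Jag1 (0.93) and Mfhas1 (0.92), and Gclc like Bpnt1 (0.89), Zcchc2 (0.88) and Ptgs2 (0.87). Slc7a11 was most like Ptprk (0.91), Clip1 (0.88) and Slc7a6 (0.88), Gclm like Sertad4 (0.87), Abcb10 (0.86) and Hsph1 (0.84), and Hmox1 like Osm (0.80), Oasl1 (0.79) and Sdc3 (0.79). Within the 9 empty vector libraries low in muscle, Mt1 and Blvrb kept rho = 0.98, while Srxn1 and Saa3 were at 0.17 and Nqo1 and Ces2g at -0.18. These values share libraries, depth and the GC trend of each library, and describe the same 23 points.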

How the data were processed

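RNA with poly(A) tails was isolated from tumour sections whose RNA integrity number was 8 or higher, and sequenced paired-end in 23 stranded libraries, per the labels' protocols. The submitters' processing notes name GRCm38 and the tools cutadapt, HISAT2, StringTie and DESeq2, without versions. The single table that the authors deposited holds estimated counts for each gene, made from aligned reads with those tools per the submitters' processing notes; the step from alignments to values is not stated. Its values are whole numbers, so rounding changed nothing. An equal value above 0 in every library was found for 143 genes. Names and coordinates came from GENCODE for GRCm38.

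Groups came from the titles. In R 4.3.3, edgeR 4.0.16 fitted 1 cell-means model of 12 groups (TMM scaling, filterByExpr, quasi-likelihood test, Benjamini-Hochberg over 24440 genes, 11 residual degrees of freedom, biological coefficient of variation 0.623). A standard error is the log2 difference over the square root of F. An exposure was averaged over both vectors, and all exposures share the media libraries. Alternatives used DESeq2 1.42.0, RLE size factors, other filters, counts divided by 4, a GC offset, a replicate block, additive models with library set or muscle signal, and each library left out. Library sets used thresholds of 100 CPM of muscle genes, 5 CPM of Ngp and 20% of counts on 1 gene, set after the data were seen. Correlations used log2(CPM + 0.5). The fit was also run on simulated counts with known vector changes. Those counts held no muscle, Ngp or GC structure, so the run cannot tell vector from library set. Depth was 47641781 to 83088346 counts per library, and counts of the 9 genes ran from 87 to 126019.

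The 9 genes and the 23 lists of 189 genes, which include them, were chosen with earlier results of these data known. Named genes are the 9, up to 4 genes of each list with the smallest p over the 12 groups, up to 3 called per list and comparison, the 3 genes most like each of the 9, and Il27, Ebi3, Il27ra and Hras as label checks; not all of them are printed. A gene named outside this rule was chosen after its values were seen.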

Additional observations from a re-analysis of the deposited data

How the results depend on the processing

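Counts of all genes called moved by more than 1.5 times under several settings. The vector difference called 722 genes, against 1966 by DESeq2, 1631 with no filter, 285 without the libraries that hold Ngp (a setting added after the data were seen), 2 with muscle signal and 0 with library set. Of the 9 genes it called 2, against 3 by DESeq2 and 4 with no filter. Calls against media were 0 for cabozantinib (303 by DESeq2, 948 with no filter), 0 for anti-PD-L1 (114 and 506), 0 for IL-27 (627 and 1093) and 1 for the combination (63 and 353, and 0 in each of the 3 additive models). Docetaxel called 437 genes, against 1691 by DESeq2, 1843 with no filter, 289 with the replicate block, 241 with a GC offset, 0 in the additive model, 0 with library set, 1 with muscle signal and 1 from the empty vector libraries low in muscle. Over the 12 groups 482 genes became 2671 by DESeq2, 3516 with no filter, 294 with the replicate block and 234 with 1 CPM in 4 libraries, and the interaction's 0 became 635, 1479 with no filter and 1 with a GC offset. Leaving out 1 library in turn gave 394 to 1244 calls for the vector, 0 to 346 for cabozantinib, 0 to 1251 for docetaxel, 0 to 101 for anti-PD-L1, 0 to 3821 for IL-27, 1 to 14 for the combination, 103 to 763 over the 12 groups and 0 to 86 for the interaction, where a group left with 1 library was taken to vary as the others do.

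Of 54 differences (9 genes, the vector and 5 exposures), 31 kept their sign in every setting, 20 turned with 1 library left out and 12 under another alternative. With library set as a term Nqo1 for IL-27 was 0.088, Srxn1 was 0.053 for cabozantinib, 0.16 for anti-PD-L1 and 0.23 for the combination, and in the vector difference Mafk was -0.19, Nfe2l2 0.088, Hspa1a -1.46 and Hspa1b -0.39. With muscle signal Sqstm1 was 0.036 and Per1 0.035. From the empty vector libraries low in muscle, Nqo1 was 0.22 for anti-PD-L1 and 0.12 for IL-27, Slc7a11 0.044 for IL-27, Srxn1 0.054 for cabozantinib and 0.39 for anti-PD-L1, and Mt1 -0.0020 for cabozantinib. With 1 library left out, Hmox1 ran from -0.93 to 0.14 for cabozantinib, -0.80 to 0.24 for docetaxel, -0.43 to 0.65 for anti-PD-L1 and -0.58 to 0.47 for the combination, Nqo1 from -0.49 to 0.17 for docetaxel, -0.58 to 0.18 for IL-27 and -0.60 to 0.068 for the combination, Slc7a11 from -1.08 to 0.061 for IL-27, Gclc from -0.47 to 0.021 for anti-PD-L1 and -0.52 to 0.023 for the combination, Txnrd1 from -0.19 to 0.11 for docetaxel, -0.086 to 0.15 for anti-PD-L1 and -0.59 to 0.13 for IL-27, Srxn1 from -0.44 to 0.29 for docetaxel, -0.64 to 0.023 for anti-PD-L1, -0.40 to 0.36 for IL-27 and -0.54 to 0.20 for the combination, Mt2 from -0.63 to 2.22 for anti-PD-L1, -0.062 to 2.83 for the combination and -0.89 to 0.093 between the vectors, and Ebi3 from -0.30 to 2.10 between the vectors. These settings use fewer contrasts within a set or fewer libraries, and the cause of each change was not tested.

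Replicate numbers showed no general pairing of the libraries: same-numbered deviations correlated at -0.67 to 0.52 over 55 pairs of groups (median 0.01, 13 above 0.1). The replicates of empty vector anti-PD-L1 fell in different library sets, which also enters these deviations. The check therefore cannot exclude that some groups shared tumours. The replicate block gave 569 calls for the vector against 722, with Nqo1 at 0.90 and Srxn1 at 0.60 still called. Scaling by library total or RLE size factors kept the sign of the log2 ratio of vector means for all 9 genes.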
